A study of Drosophila melanogaster with 6 samples.

Results

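Neuropeptides are short signaling molecules that neurons and endocrine cells cut out of longer precursor proteins, store in dense-core granules and release to act on receptors, most of which couple to G proteins. In the fly they act in the daily timing of activity, in feeding, in memory and in energy use, and several are made by neurons of the circadian clock or by cells that receive clock signals. Examined here were 10 precursor genes, Pdf, Dh44, NPF, sNPF, Nplp1, Nplp2, Nplp3, Nplp4, amn and Akh, each chosen by its gene symbol in the array annotation. Each had 1 probe set, so 10 of the 13966 probe sets that are not array controls represented them.

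The arrays carried RNA from adult heads of flies of both sexes kept at 25°C under 12 h of light and 12 h of darkness a day. The flies were frozen at ZT6, the middle of the light phase. In the LARK overexpression group, elav-gal4 mothers, whose driver is active in neurons throughout the nervous system, were crossed to uas-lark fathers, to drive extra LARK in neurons. LARK is an RNA-binding protein that acts downstream of the clock. Males of this group were elav-gal4; uas-lark/+ and females elav-gal4/+; uas-lark/+. The control came from elav-gal4 mothers and w1118 fathers, which gave elav-gal4 males and elav-gal4/+ females, so that both groups carried the driver. According to the series' description, each genotype gave 1 RNA sample, from which all 3 of its arrays were labeled. By that description, the tests below measure differences between 2 RNA samples against labeling and hybridization spread, not against the spread between flies. None of the 10 genes is on the study's list of RNAs that precipitate with LARK. That list came from dissected brains of wild-type pharate adults, another stage and tissue than these adult heads.

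The values are linear MAS5 signals, a summary of the probes of each set. LARK overexpression and control arrays of 1 replicate number share a hybridization day and a scaling. Their 2% trimmed means were 150, 85 and 100 for numbers 1, 2 and 3, so the most direct comparison is LARK overexpression against control within a number. Standard errors given below with ± come from fits without a block or centering, so they also include these scaling differences. Between 6312 and 8555 probe sets per array read above 40, the level that the study's methods used as a filter. LARK overexpression array 1 stood apart from arrays 2 and 3 of its genotype, with correlations of log2 signal across kept probe sets of 0.877 and 0.892 against 0.946 between arrays 2 and 3, and its run header, unlike the others, does not name the head. The summed signal of a list of gut markers was 816 on array 1, and 2524 and 2586 on arrays 2 and 3. Whether array 1 carried the same RNA as arrays 2 and 3 was not tested. The probe set of lark itself had a log2 difference of -0.03 ± 0.45 (SE, n = 3 per genotype, limma adjusted p = 0.999), and whether its probes lie within the transgene is not known, so it does not check the genotype labels. In whole-head RNA, fewer cells of a type and less RNA per cell cannot be told apart.

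Signals of 8 of the 10 precursors exceeded 40 on at least 1 array, and all 8 did so in both genotypes. Pdf, Nplp1, Nplp2, Nplp3 and Nplp4 were above 40 on all 6 arrays. The NPF signal was at most 40 on 1 LARK overexpression array, that of sNPF on 1 and that of Dh44 on 2. For amn and Akh no array reached 40. Signals of different probe sets depend on their probes, so they give no order of expression among the genes.

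**Figure D1:**
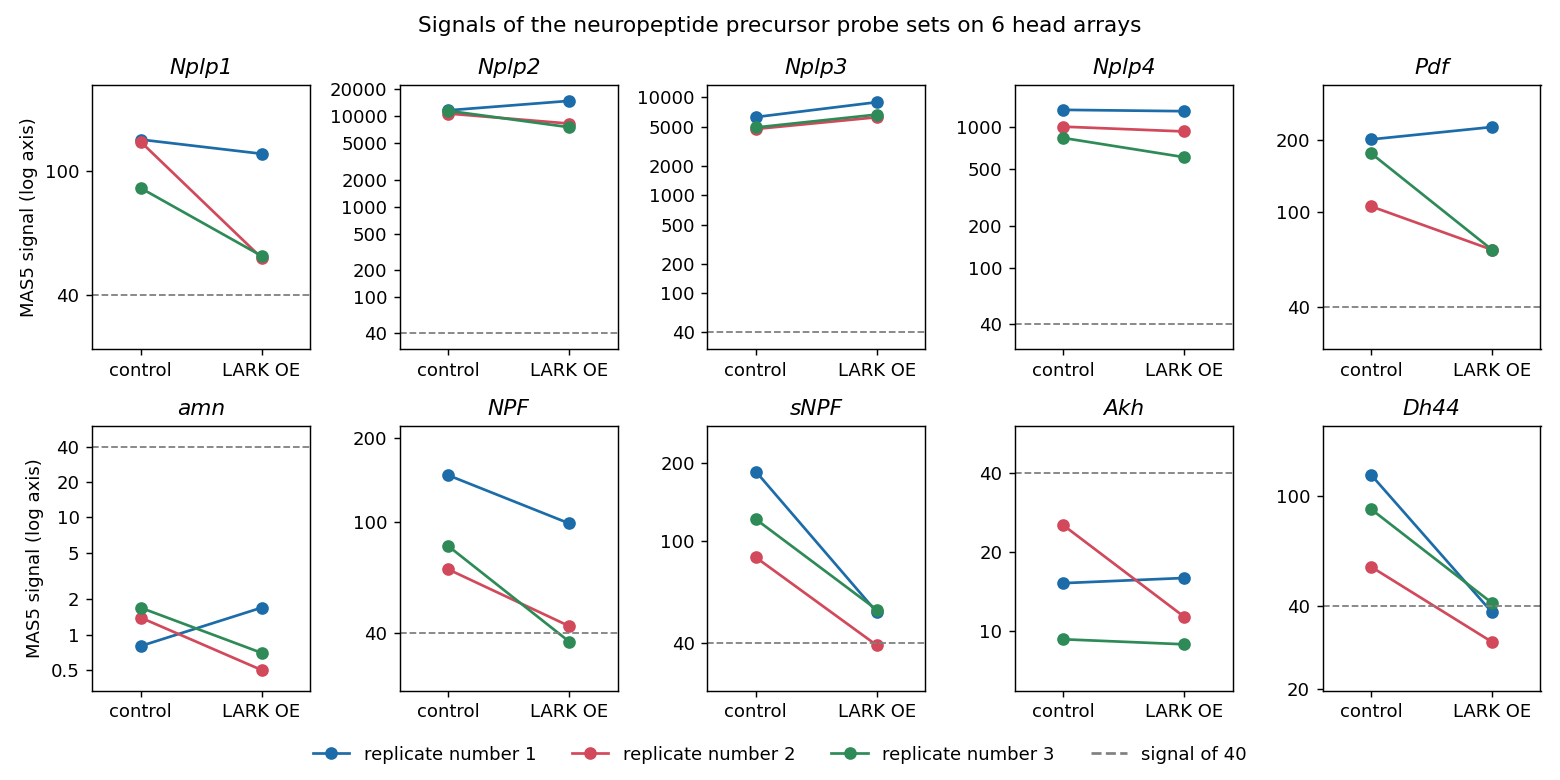
MAS5 signal (log axis, separate range in each panel) of each neuropeptide precursor probe set on the 3 control arrays and the 3 LARK overexpression (LARK OE) arrays, with a line joining the arrays of each replicate number and a dashed line at a signal of 40. The lines of sNPF, Dh44 and NPF run downward and those of Nplp3 upward at all 3 numbers, while Pdf and Nplp2 run upward at number 1 and downward at numbers 2 and 3.

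The widest separations were those of sNPF and Dh44, for which LARK overexpression signals were below the control at each replicate number. The gene sNPF encodes short neuropeptide F, which is made by mushroom body neurons and many others and promotes feeding and growth. Its signals were 52.7, 39.2 and 53.9 on LARK overexpression arrays 1, 2 and 3, and 185.6, 86.1 and 121.1 on the control arrays. Every LARK overexpression array lay below every control array. Within replicate numbers 1, 2 and 3, the LARK overexpression signal was 28.4%, 45.5% and 44.5% of the control. The log2 difference was -1.37 ± 0.46 (SE, n = 3 per genotype, limma adjusted p = 0.187), a geometric mean signal 2.59-fold lower.

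Dh44 encodes a diuretic hormone related to vertebrate corticotropin-releasing factor, made by neurosecretory cells of the pars intercerebralis that carry clock output to locomotor activity. Its LARK overexpression signals were 38.0, 29.7 and 41.1 and its control signals 119.7, 55.6 and 89.9. Here too the genotypes did not overlap, although 2 of the 3 LARK overexpression values were at or below 40. The LARK overexpression signal came to 31.7%, 53.4% and 45.7% of the control at numbers 1, 2 and 3. The log2 difference was -1.23 ± 0.46 (SE, n = 3 per genotype, limma adjusted p = 0.264), or -1.06 with values under 40 set to 40.

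For both genes the difference at number 1 exceeded those at numbers 2 and 3. Neither passed limma's test after adjustment over all 9432 kept probe sets. On arrays centered on their medians the limma adjusted p was 0.0521 for sNPF and 0.0843 for Dh44, with standard errors of 0.22 and 0.24. With the replicate number as a block the adjusted p was 0.0981 for sNPF and 0.109 for Dh44, and with a trend in intensity and a robust prior added to the block it was 0.0158 and 0.0356. Without LARK overexpression array 1, on arrays centered on their medians, the log2 difference was -1.09 for sNPF (limma adjusted p = 0.0349) and -0.93 for Dh44 (limma adjusted p = 0.0663), in a setting that called 8.05% of all kept probe sets. Over the alternatives run, adjusted p ranged from 0.0158 to 0.434 for sNPF and from 0.0356 to 0.537 for Dh44, apart from 0.999999 for both without number 3 in either genotype, and the direction stayed the same.

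NPF, the fly relative of vertebrate neuropeptide Y, acts in feeding, reward and stress and is made in the brain and in endocrine cells of the midgut. Its signals were 99.1, 42.4 and 37.3 with LARK overexpression and 147.6, 67.8 and 82.2 in the control. The genotypes overlapped on the deposited scale but not with arrays centered on their medians. Within a number LARK overexpression was lower each time, at 67.1%, 62.5% and 45.4% of the control. The log2 difference was -0.80 ± 0.51 (SE, n = 3 per genotype, limma adjusted p = 0.724), and with centered arrays it was -0.46 without LARK overexpression array 3.

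Pdf encodes pigment-dispersing factor, the main output peptide of the ventral lateral clock neurons and a signal that keeps clock neurons in step. LARK overexpression arrays read 227.2, 69.6 and 69.6, and control arrays 201.7, 105.8 and 176.4. At number 1 LARK overexpression was the higher of the pair, at 113% of the control, whereas at numbers 2 and 3 it was lower, at 65.8% and 39.5%. The log2 difference was -0.59 ± 0.53 (SE, n = 3 per genotype, limma adjusted p = 0.957). Its 3 differences of 0.17, -0.60 and -1.34 had an SD of 0.76, which exceeded the size of their mean. Without LARK overexpression array 1 and with centered arrays the value was -0.82, without array 3 of that genotype it was -0.23, and none of these passed the test.

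**Figure D2:**
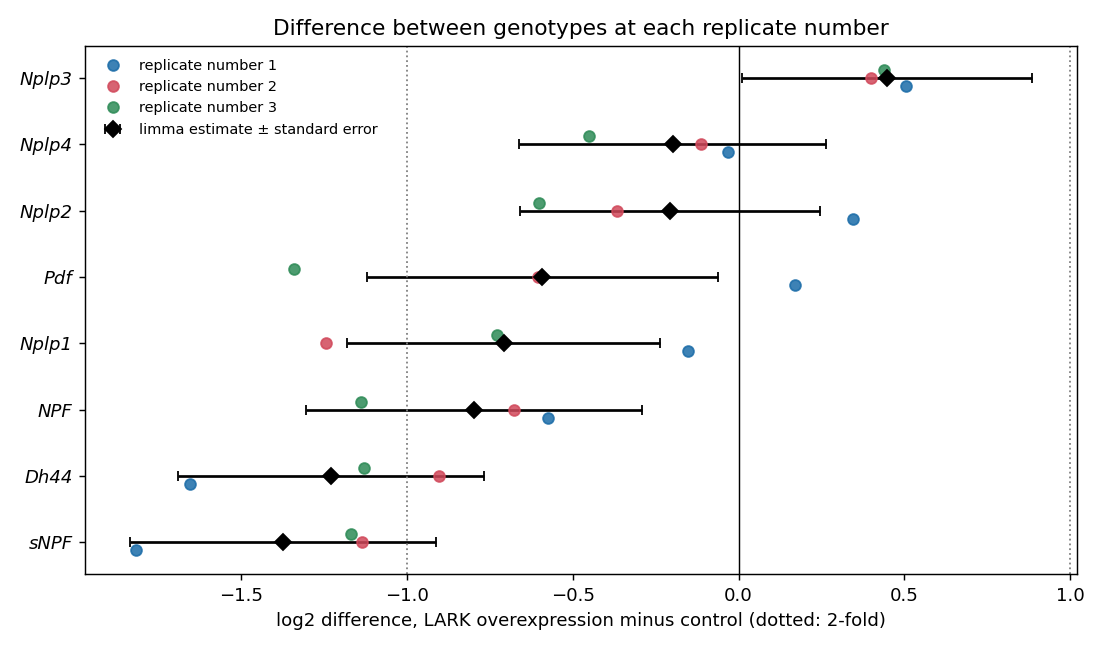
Log2 difference of signal, LARK overexpression minus control, for the 8 neuropeptide precursor probe sets above 40 on at least 1 array, with a colored point for each replicate number and a diamond with a bar for the limma estimate and its standard error. The 3 points of sNPF lie between -1.82 and -1.14 and those of Nplp3 between 0.40 and 0.51, while those of Pdf span -1.34 to 0.17.

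The 4 neuropeptide-like precursors were identified from peptides of the fly nervous system. Nplp1 encodes several amidated peptides, 1 of which, IPNamide, is found in dorsal clock neurons. It read 114.0, 52.6 and 53.4 with LARK overexpression and 126.7, 124.7 and 88.4 in the control. LARK overexpression was lower at each number, at 90.0%, 42.2% and 60.4% of the control, so that number 1 differed little (-0.15 on the log2 scale) and number 2 most (-1.25). The log2 difference was -0.71 ± 0.47 (SE, n = 3 per genotype, limma adjusted p = 0.762). With centered arrays it was -0.33 without control array 2 and -0.46 without LARK overexpression array 3.

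Nplp3 ran the other way and was the most even of the set. Its signals were 8958.9, 6281.6 and 6693.1 with LARK overexpression and 6310.2, 4766.0 and 4941.5 in the control. Each LARK overexpression array was above its partner, at 142%, 132% and 135% of the control. These differences had a mean of 0.45 and an SD of 0.05 on the log2 scale. In limma the standard error of the unblocked comparison was 0.44 (n = 3 arrays per genotype, adjusted p = 0.999), and with the replicate block it was 0.17 (adjusted p = 0.251).

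Nplp4, measured by a set whose _r suffix marks that some probe selection rules were dropped, read 1285.4, 924.3 and 607.9 with LARK overexpression and 1313.7, 999.2 and 831.4 in the control. The values were 97.8%, 92.5% and 73.1% of the control, a log2 difference of -0.20 ± 0.46 (SE, n = 3 per genotype, limma adjusted p = 0.999). For Nplp2 the signals were 14752.2, 8289.7 and 7556.4 against 11605.7, 10689.3 and 11465.5. LARK overexpression was higher at number 1, at 127% of the control, and lower at numbers 2 and 3, at 77.6% and 65.9%. Its log2 difference was -0.21 ± 0.45 (SE, n = 3 per genotype, limma adjusted p = 0.999), and leaving out 1 array on centered data moved it between -0.29 and 0.06.

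Both remaining genes stayed low on every array. The amn product, a peptide precursor needed for memory in neurons that innervate the mushroom bodies, had signals of 0.5 to 1.7 with LARK overexpression and 0.8 to 1.7 in the control. Akh encodes adipokinetic hormone, which mobilizes stored fat and sugar and is made by the corpora cardiaca, glands that lie beside the foregut outside the brain. It read 15.9, 11.3 and 8.9 with LARK overexpression and 15.2, 25.2 and 9.3 in the control. With every value under 40, neither gene entered the main test. Without a filter on signal, limma gave log2 differences of -0.56 ± 0.57 for amn (SE, n = 3 per genotype, adjusted p = 0.983) and -0.39 ± 0.52 for Akh (SE, adjusted p = 0.999).

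Of the 8 precursors tested, 0 were called at an adjusted p under 0.05 by limma, against 1.55% of all kept probe sets (146 of 9432). At an unadjusted p under 0.05 there were 2, sNPF and Dh44, where 10.8% of all kept probe sets reached that level, and with the replicate block there were 3, NPF being the third, against 20.2%. When the block was joined by a trend in intensity and a robust prior, 2 of 8 were called, beside 6.05% of all. A more than 2-fold lower signal was found for 2 of 8, beside 8.67% of all, and the same 2 had LARK overexpression signals wholly below those of the control, beside 8.58%. With arrays centered on their medians, 4 of 8 lay wholly below (sNPF, Dh44, NPF and Nplp1), beside 12.2% of all, and 1 of 8 wholly above (Nplp3), beside 13.9%. LARK overexpression was lower at all 3 replicate numbers for 5 of 8 (sNPF, Dh44, NPF, Nplp1 and Nplp4), beside 26.9% of all, and higher at all 3 for 1 of 8 (Nplp3), beside 17.6%. With arrays centered on their medians Nplp4 turned to 0.11 at number 1, which left 4 lower at all 3. No share of all kept probe sets is given for that count, so whether it is unusual cannot be told. At numbers 2 and 3 alone, a count added after seeing the data because LARK overexpression array 1 stood apart, 7 of 8 were lower at both, beside 42.4%. The median log2 difference of the 8 was -0.65, that of all kept probe sets -0.07. Centering each array on its median moved the latter to 0.06 and left all 8 on the same side of 0. With 8 genes measured on the same arrays these counts are descriptions and were not tested.

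Other precursor genes had a median close to that of all probe sets. Of 31 further neuropeptide and insulin-like genes, 20 were on the array by name and 14 read above 40 on at least 1 array. Limma called 0 of these 14, and 1 had an unadjusted p under 0.05, beside 1.55% and 10.8% of all kept probe sets. There were 6 above 0 and 8 below, or 8 above and 6 below with centered arrays, and the median log2 difference was -0.10. Among those with the highest signals, Ms, which encodes the muscle-relaxing peptide myosuppressin, had a log2 difference of -0.09 (above 0 with centered arrays) and Ilp2, an insulin-like peptide gene of brain neurosecretory cells, -0.25. AstC (allatostatin C) had -0.69 and ITP (ion transport peptide) -0.56, the largest among those above 40 on all 6 arrays. The gene of the muscle-stimulating peptide proctolin, Proc, is named here after its value was seen. Its signals were 86.9, 28.6 and 36.3 with LARK overexpression and 207.8, 146.5 and 138.0 in the control, which is a log2 difference of -1.85 ± 0.50 (SE, n = 3 per genotype, limma adjusted p = 0.0798). It was called in 8 of 18 alternatives, arrays centered on their medians among them. LARK overexpression arrays 2 and 3 were under 40 for Proc. With values under 40 set to 40 the difference was -1.64 and was not called, in a setting that called 0 of all 9432 probe sets.

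Receptors of the described peptides were dim. The 8 probe sets of 6 receptor genes read above 40 on at least 1 array, but only that of Pdfr, the PDF receptor gene, did so on all 6. Limma called 0 of 8 and 2 had an unadjusted p under 0.05, beside 1.55% and 10.8% of all kept probe sets. The median log2 difference was -0.55. Pdfr had a log2 difference of 0.06 ± 0.45 (SE, n = 3 per genotype). AkhR, the adipokinetic hormone receptor gene of the fat body, had -0.28, and NPFR, the NPF receptor gene, -0.56. For the ligands with the lowest values, both probe sets of sNPF-R were below 0, at -0.55 and -1.60, and both of Dh44-R2 at -1.27 and -1.45, lower at all 3 numbers for each Dh44-R2 set. The other Dh44 receptor gene, Dh44-R1, had 0.32 ± 0.47 (SE, n = 3 per genotype). Both Dh44-R2 sets were under 40 on every LARK overexpression array, and both sNPF-R sets on arrays 2 and 3. With values under 40 set to 40 the Dh44-R2 differences were -0.49 and -0.25 and those of sNPF-R -0.14 and -0.24.

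**Figure D3:**
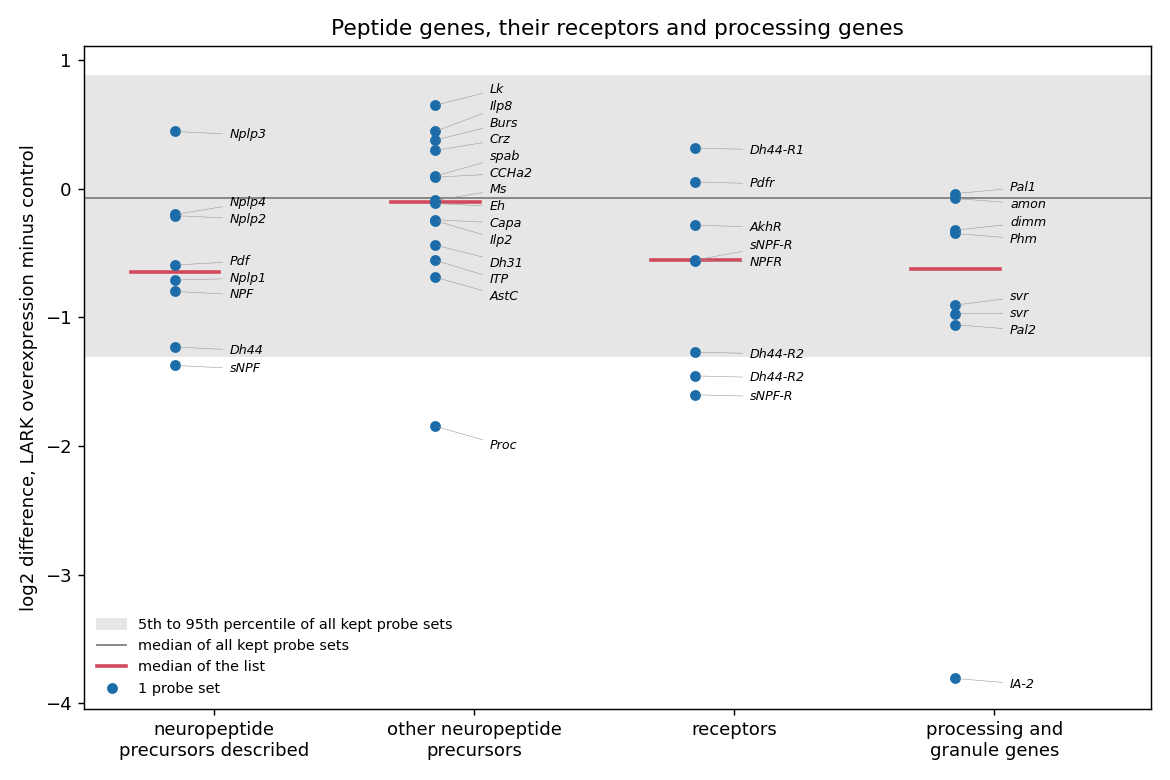
Log2 difference of signal, LARK overexpression minus control, for each kept probe set (blue points, with gene names) of the neuropeptide precursors described, other neuropeptide precursors, their receptors and genes of peptide processing and granules, with the median of each list in red. The grey band spans the 5th to 95th percentile of all kept probe sets, from -1.30 to 0.88, and sNPF, Proc, IA-2, 1 set of sNPF-R and 1 of Dh44-R2 lie below it.

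Genes of peptide processing and secretory granules had 8 kept probe sets of 7 genes. All 8 lay below 0, beside 5304 of all 9432 kept probe sets, although amon and Pal1 lay above 0 with centered arrays. Their median log2 difference was -0.62, and that of all kept probe sets -0.07. Only IA-2 fell by limma, beside 114 of all 9432, and that call depended on the settings. It encodes a phosphatase-like protein of dense-core granules and read 37.9, 6.0 and 11.5 with LARK overexpression and 214.9, 142.1 and 235.7 in the control. Its log2 difference was -3.81 ± 0.59 (SE, n = 3 per genotype, limma adjusted p = 0.00477). All its LARK overexpression values were under 40. With those set to 40 the difference was -2.27 and did not pass, in a setting that called 0 of all 9432 probe sets. With the replicate block IA-2 was not called (limma adjusted p = 0.0856), nor was any of the 9432 probe sets, of which 1903 had an unadjusted p under 0.05. The gene Pal2, which encodes a lyase that completes peptide amidation, had -1.06 ± 0.46 (SE, n = 3 per genotype, limma adjusted p = 0.394) and was named after its value was seen. The convertase gene amon and the monooxygenase gene Phm, which act earlier on precursors, had log2 differences of -0.07 and -0.35. The carboxypeptidase gene svr, which trims the cleaved peptides, had -0.97 and -0.90 at its 2 probe sets, lower at all 3 numbers in both, with no LARK overexpression value above 40.

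Other measures moved with the genotype beside these values, some of them mainly on LARK overexpression arrays 2 and 3. The part of these measures in the precursor values was not tested. Of 10 kept probe sets of neuron markers, 3 fell by limma (nSyb, VGlut and Gad1), beside 114 of all 9432. The list median was -1.26, and the summed signal was 686 to 1379 with LARK overexpression and 1437 to 2498 in the control. In that list 3 probe sets lay above 0 (both of ChAT, at 0.37 and 0.21, and that of para, at 0.37) and 7 below. The pan-neuronal gene elav had -0.13, and was above 0 with quantile normalization. The 4 photoreceptor probe sets (Arr1, Arr2, trp and inaD) read 584 or more on every array and had a median log2 difference of -0.24. The 6 glial sets had a median of -0.01 (0.12 with centered arrays), with 0 called in either list. Of 8 kept gut probe sets 5 rose by limma, beside 32 of all 9432. The summed signal of the gut list was 816, 2524 and 2586 on LARK overexpression arrays 1, 2 and 3 and 348 to 592 in the control. At numbers 1, 2 and 3 the median log2 difference was 0.50, 4.19 and 4.03 for the gut list, 0.38, -0.52 and -0.66 for the fat body list, 0.13, -0.50 and -0.33 for the photoreceptor list, -1.51, 0.25 and -1.39 for the neuron list and -0.09, -0.64 and -0.93 for the 8 neuropeptide precursors. The neuron median at number 2 rests in part on dim probe sets. There elav, para and both kept sets of brp were above 0 with signals under 40 on both arrays. Both ChAT sets were also above 0 at number 2, whereas nSyb, VGlut, Gad1 and Syn had -2.09, -1.64, -2.41 and -1.29. Fat body markers had 1 rise, Fbp1, among 9 probe sets and a median of -0.27, with 3 sets above 0 and 6 below. Fbp2, not called, read 10.6, 625.6 and 686.5 with LARK overexpression and 12.1 to 23.2 in the control. In the muscle list 1 of 6 probe sets rose, fln, at 20.6, 926.1 and 1242.6 against 7.4 to 19.6. Act88F, not called, read 91.0, 2989.1 and 3293.6 against 83.6 to 149.4. The median log2 difference of the muscle list was -0.04, 0.65 and 0.78 at numbers 1, 2 and 3. The 8 kept probe sets of clock genes had a median of -0.13 with 0 called.

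Signs of RNA quality also parted the genotypes. The ratio of 3′ to 5′ signal was 6.05 to 6.52 on the LARK overexpression arrays and 2.81 to 3.02 on the control arrays for the eIF-4a control transcript, and 5.51 to 6.21 against 1.89 to 3.41 for actin, while for GAPDH the ranges overlapped (3.23 to 5.06 and 2.82 to 4.04). Among the 9 listed genes with 2 kept probe sets, the sets of a gene lay from 0.07 (svr) to 1.92 (tim) apart. The clock gene tim had log2 differences of 0.19 and -1.73 at its kept probe sets, and the glial gene loco, the next widest, had 0.36 and -1.24, the latter -0.24 with values under 40 set to 40. Each neuropeptide precursor had 1 probe set and its place along the transcript is not in the files used here, so none of the differences above was measured a second time within the gene.

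As a description of pattern, the kept probe sets that varied most like Nplp2, Nplp3 and Nplp4 (the precursor probe sets of highest mean signal) were sought among the 4751 others that had a single gene symbol and were above 40 on all arrays, by Pearson's r of centered log2 values over the 6 arrays. For Nplp3 these were PCNA (r = 0.996), the sliding clamp gene of DNA replication, and SelR (r = 0.995), a methionine sulfoxide reductase gene. Closest to Nplp2 were CG10257 and the ribosomal protein gene RpLP1 (r = 0.995 and 0.994), and closest to Nplp4 were Qsox1, a sulfhydryl oxidase gene, and CG18294 (r = 0.993 and 0.983). An r over 0.9 was reached by 191 probe sets for Nplp3, 60 for Nplp2 and 37 for Nplp4. These values rest on 6 arrays, from 2 RNA samples by the series' description.

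**Figure D4:**
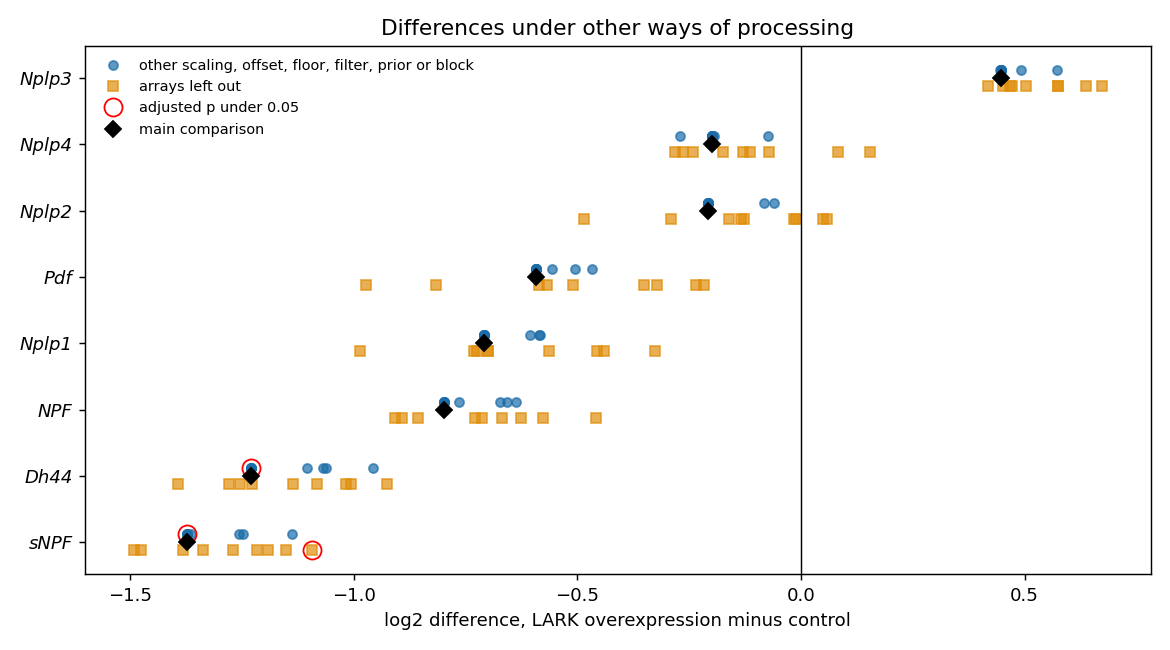
Log2 difference of each tested neuropeptide precursor in the main comparison (diamonds), under other scalings, offsets, floors, filters, priors and blocks (circles), and with arrays left out (squares), with a red ring where the adjusted p was under 0.05. The values of sNPF stay between -1.49 and -1.09 and those of Dh44 between -1.39 and -0.93, while Nplp2 and Nplp4 cross 0 when LARK overexpression array 3 or control array 2 is left out.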

How the data were processed

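Total RNA of adult heads was labeled and hybridized to the Affymetrix DrosGenome1 array, 3 arrays per genotype. The deposited values are linear signal intensities from MAS5, as the submitters' processing notes record. Its version is not stated in those notes, and the study's methods describe GCRMA instead. Of 13966 probe sets other than 44 array controls, the annotation gives 12443 a single symbol, 327 several and 1196 none. The symbols of all 10 members also matched by gene identifier in the RefSeq table.

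Values were converted to log2, and a probe set was kept (9432 of them) if any array exceeded 40. The genotype difference was fitted in R 4.3.3 by limma 3.58.1, 2-sided, with p-values adjusted over all kept probe sets (Benjamini-Hochberg) and a call at an adjusted p under 0.05. The fit was tested on simulated data with independent noise and planted differences larger than those of the precursors. That test does not show how well differences of their size are detected. Arrays of the same number shared a hybridization day by their headers, and a scaling, and so are pairs, which is why a replicate block is given as well. The deviations of paired arrays from their genotype means correlated at 0.0936, 0.172 and 0.0256 across probe sets, and those of unpaired arrays at -0.212 to 0.102, so the pairing rests on the headers and not on these values. The number of arrays limits the precision, and without a block or centering so do the scaling differences between numbers.

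Every member is named. From the other lists the rule names called genes and otherwise the 2 with the highest signal and the 2 with the largest difference among those above 40 on all arrays. Other receptor and processing genes, tim and loco were chosen with their values known. The probe set of the receptor gene Gyc76C carries a second gene's symbol and was not used. The members and lists were chosen with earlier results of these data known. Alternatives concerned scaling, offset, floor, filter, variance prior, block and left-out arrays. Single arrays were left out on centered arrays, since the scalings of the numbers otherwise no longer cancel.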

Additional observations from a re-analysis of the deposited data

How the results depend on the processing

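Of the 8 neuropeptide precursors, Nplp1, Nplp3, Pdf, NPF, sNPF and Dh44 kept their direction in every alternative run. With single arrays left out Nplp2 ranged from -0.29 to 0.058 and Nplp4 from -0.26 to 0.15. Nplp2 turned to 0.048 when LARK overexpression replicate 3 was left out and to 0.058 for control replicate 2, and Nplp4 to 0.15 and 0.082. The number of precursors called, 0 in the main comparison, was 2 with the replicate block, intensity trend and robust prior (sNPF and Dh44) and 0 to 1 with arrays left out. The 1 was sNPF, without LARK overexpression replicate 1, where 759 of all 9432 probe sets were called against 146 in the main comparison. The replicate block alone left it at 0. The count of precursors lower at all replicate numbers, 5 beside 26.9% of all kept probe sets, was 4 with centered arrays. At numbers 2 and 3 alone, a looser criterion, it was 7 beside 42.4% of all. The count wholly below the control, 2 beside 8.58% of all, was 4 beside 12.2% with centered arrays. These alternative counts were chosen after seeing the data. Setting values under 40 to 40 moved none of the 8 by over 1.5 times.

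Among the other precursors the count, 0, became 1 (Proc each time) with centering, quantile normalization, an offset of 16, the filter above 100, the trend and robust prior, and this prior with the block, and was 0 to 1 with arrays left out. The receptor count of 0 was 0 to 1 with arrays left out, the 1 being Dh44-R2 without LARK overexpression replicate 1. The processing gene count of 1 (IA-2) was 0 with the floor at 40, without a filter, with the filter above 40 on all 6 arrays and with the replicate block, 2 (IA-2 and Pal2) with the block, trend and robust prior, and 0 to 2 with arrays left out. It was 2 without array 1 of LARK overexpression and 0 without either of its other arrays or any control array. The floor at 40, the replicate block and each left-out control array called 0 of all 9432 probe sets. A count of 0 in those settings therefore says nothing particular to any list. Leaving out LARK overexpression array 2 or 3 called 16 and 3 of all 9432. Low signal bounds what could be seen, with sNPF and Dh44 near 40 on the LARK overexpression arrays and amn and Akh under it throughout. The causes of these shifts were not tested.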
